A study of Mus musculus with 29 samples.

Results

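The genes described here are 10 genes of Notch signalling in the mouse: the ligand genes Dll1, Dll3, Jag1 and Jag2, the receptor genes Notch1, Notch2 and Notch3, and the Fringe genes Lfng, Mfng and Rfng. They were chosen by name as genes of the pathway, with earlier results of these data known, and they are 10 of the 23337 genes counted in each of 29 RNA sequencing libraries. All 10 passed the filter on low counts in every comparison. Every library was made from embryos of the C57BL/6 strain at embryonic day 9.0, and the labels describe these as Dll1-YFP embryos.

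DIR and CTRL (n = 4 each) are Dll1-lineage cells of presomitic mesoderm grown in culture. DIR had LDN and SAG added and CTRL had neither. The labels call the pair sclerotome-inducing: LDN blocks BMP receptors, and SAG turns on Hedgehog signalling through Smoothened. Both groups are also labelled as collected by FACS. The SOM groups were not cultured and hold cells of the same lineage, collected by FACS for YFP, with 3 libraries of SOMA and 4 each of SOMB, SOMC and SOMD. SOMA holds the presomitic mesoderm with the newest somite, SOMB somites 2 to 5 and SOMC somites 6 to 9. SOMD starts at somite 10, and the last somite that its labels give differs by library, between 13 and 16. MUT and WT (n = 3 each) were not sorted, and RNA was extracted from them without culture; 1 label calls them trunk tissue and another paraxial mesoderm. What MUT carries is not stated in the labels, and the series title names the long non-coding RNA PEAT. Dll1 is thus both one of the genes measured and the gene behind the sorting mark, and whether the YFP construct adds reads to Dll1 is not given in the sources used here.

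In the Notch pathway a ligand on one cell binds a receptor on its neighbour, the receptor is cut, and its freed inner part enters the nucleus and joins the DNA-binding protein RBPJ to switch on target genes. Fringe enzymes add a sugar to the outer part of the receptor and so alter which ligands can activate it. In presomitic mesoderm Notch targets and Lfng are switched on and off in cycles, the segmentation clock, and Notch activity helps to set somite borders and the front and back of each somite.

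The libraries held 11541131 to 44363411 gene counts. Levels are given as CPM, counts scaled to the size of each library. Markers fixed for other cell types were checked in each group. The summed level of 6 presomitic markers was 160 to 265 CPM in SOMA, 3.63 to 15.0 CPM in SOMB, 2.78 to 3.56 CPM in SOMC and 1.81 to 2.85 CPM in SOMD. It was 87.4 to 297 CPM in DIR and 75.9 to 192 CPM in CTRL. In trunk libraries 10 neural tube markers summed to 223 to 354 CPM in MUT and 246 to 407 CPM in WT, against 31.6 to 122 CPM over the SOM groups, and 5 erythroid markers to 1442 to 2641 CPM in MUT and 937 to 2202 CPM in WT. SOMC1 and SOMC4 were closer to each other than other pairs within a SOM group, as were SOMD1 and SOMD4 (chi-square per degree of freedom 1.90 and 1.86, against 8.75 or more). Each pair still differed beyond sampling noise, which repeat libraries can also do, so this cannot show that they are separate samples. Each was kept as a sample in the main fits. With each pair summed, SOMC against SOMB gave 15 genes, against 114 in the main fit. The labels do not say that the samples of a group come from separate embryos, so p-values measure the spread between these samples, which may be technical.

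Dll1 and Lfng are the genes whose upstream sequence is shown, as the ligand and the modifier gene with the largest changes that have sequence ahead of any annotated untranslated region. The bases come from RefSeq (GRCm38.p6) and run 5′ to 3′ on the gene's own strand. Capitals mark matches to CANNTG, the E-box bound by bHLH factors, and to TGGGAA, a core of the RBPJ site, on either strand. The Dll1 stretch is chr17:15376933-15377182 on the minus strand and ends just before the more upstream of 2 RefSeq start sites. The Lfng stretch is chr5:140607091-140607319 on the plus strand, and its second E-box shares letters with the TGGGAA that follows it.
Dll1: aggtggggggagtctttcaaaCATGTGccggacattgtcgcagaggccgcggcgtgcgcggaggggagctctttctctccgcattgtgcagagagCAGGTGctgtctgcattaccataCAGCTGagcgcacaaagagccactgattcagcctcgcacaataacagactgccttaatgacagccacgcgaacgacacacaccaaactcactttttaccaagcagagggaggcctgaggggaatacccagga
Lfng: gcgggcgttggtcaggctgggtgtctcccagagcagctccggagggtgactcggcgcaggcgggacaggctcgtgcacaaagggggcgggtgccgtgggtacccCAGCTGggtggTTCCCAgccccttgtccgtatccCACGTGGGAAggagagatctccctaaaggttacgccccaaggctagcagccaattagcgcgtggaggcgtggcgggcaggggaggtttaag

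The Dll1 stretch held 3 E-boxes and no TGGGAA. The Lfng stretch held both motifs, with TGGGAA on the minus strand at −135 to −130 and on the plus strand at −108 to −103 from the start site. RefSeq gave 10 upstream windows of 250 bases for 9 of the 10 genes. Lfng was the single one with TGGGAA, which 21.6% of all 32851 windows of this length hold, and 6 of the 10 held an E-box, against 66.2% of all. AGGTGT, part of the T-box site, was in 1 of the 10 windows, upstream of Rfng and overlapping an E-box there, against 11.8% of all. CTTTGA, a TCF/LEF core, was in 0 of the 10, against 13.8% of all. Each motif was searched on both strands, and a match is a run of letters, not a measured binding site. Upstream here means ahead of a RefSeq start site. The windows of Dll3, Jag2, Notch1 and the other Dll1 start site lie wholly inside the annotated span of the gene.

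**Figure D1:**
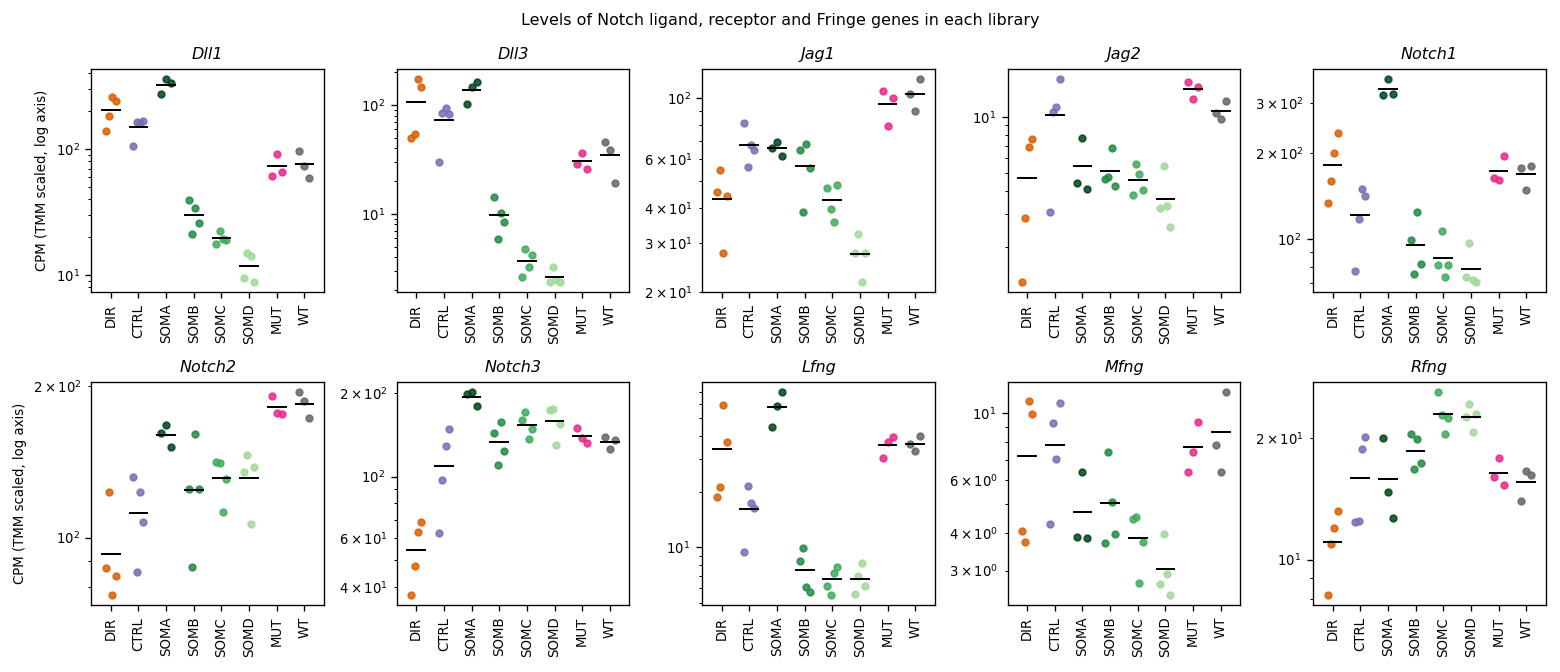
Each point is the level of a gene in 1 library, in CPM scaled by TMM on a log axis, and each line is the mean of a group. Dll1, Dll3, Notch1 and Lfng are far higher in SOMA than in SOMB, SOMC and SOMD, while Rfng is highest in SOMC and SOMD.

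Over the 8 groups the genes fell into different orders. Mean levels of Dll1, Dll3, Notch1, Notch3 and Lfng were highest in SOMA, at 322, 137, 335, 193 and 57.5 CPM. Jag1, Notch2 and Mfng were highest in WT trunk tissue, at 103, 184 and 8.65 CPM, Jag2 in MUT trunk tissue (14.1 CPM) and Rfng in SOMC (22.9 CPM). The lowest mean was in SOMD for Dll1, Dll3, Jag1, Jag2, Notch1 and Mfng, in SOMC for Lfng and in DIR for Notch2, Notch3 and Rfng. These ends of the orders were the same under RLE scaling and unscaled library totals, except that Rfng was highest in SOMD with the totals.

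Most neighbours in these orders could not be separated. For Dll1 the ranges of 4 of the 7 neighbouring pairs of groups did not overlap: SOMA stood above DIR, CTRL above WT, MUT above SOMB and SOMC above SOMD. For Dll3, Notch2 and Rfng 2 pairs each stood apart, for Mfng 0, and for the other 5 genes 1 pair each. No test was made across sorted, cultured and trunk samples beyond that of CTRL against SOMA.

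Along the somite series the clearest change lay between the presomitic level and the first formed somites. In SOMB against SOMA, Dll1, Dll3, Notch1, Notch3 and Lfng fell, which is 5 of the 10 genes, where 8.67% of the 13790 genes tested changed and 4.55% fell. The median log2 fold change was −0.46 over the 10 genes and 0.01 over all genes tested. All 6 presomitic markers fell in the same comparison, and 3 of 10 neural tube markers rose. Of 6 somite markers 2 rose and 1 fell. In bulk RNA fewer cells of a type and less RNA per cell cannot be told apart, and the part of these cell types in these changes was not tested.

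Later steps held fewer calls. In SOMC against SOMB, Dll3 alone fell, 1 of 10 genes where 0.827% of all genes tested changed and 0.341% fell. In SOMD against SOMC no gene of the 10 passed, where 2.34% of all genes tested changed; Dll1 and Jag1 had an unadjusted edgeR p under 0.05, and both passed with DESeq2, which called 3.6% of all genes. Over the formed somites as a whole, SOMD against SOMB, Dll1, Dll3 and Jag1 fell (3 of 10, with 10.4% of all genes changed and 4.38% lower). In SOMD against SOMA, Dll1, Dll3, Jag1, Notch1 and Lfng fell and Rfng rose, 6 of 10 where 19.8% of all genes changed, 8.92% lower and 10.8% higher. In SOMD against SOMB 2 of 6 presomitic, 3 of 6 somite, 2 of 7 epithelial and 2 of 10 neural tube markers fell, and 1 neural tube marker rose. Against SOMA, all 6 presomitic, 3 of 6 somite, 1 of 7 epithelial and 2 of 10 neural tube markers fell in SOMD, and 2 somite and 4 neural tube markers rose. Of 7 lateral mesoderm markers 1 rose and 1 fell in each. The part of these cell types in the calls was not tested. These comparisons share libraries.

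**Figure D2:**
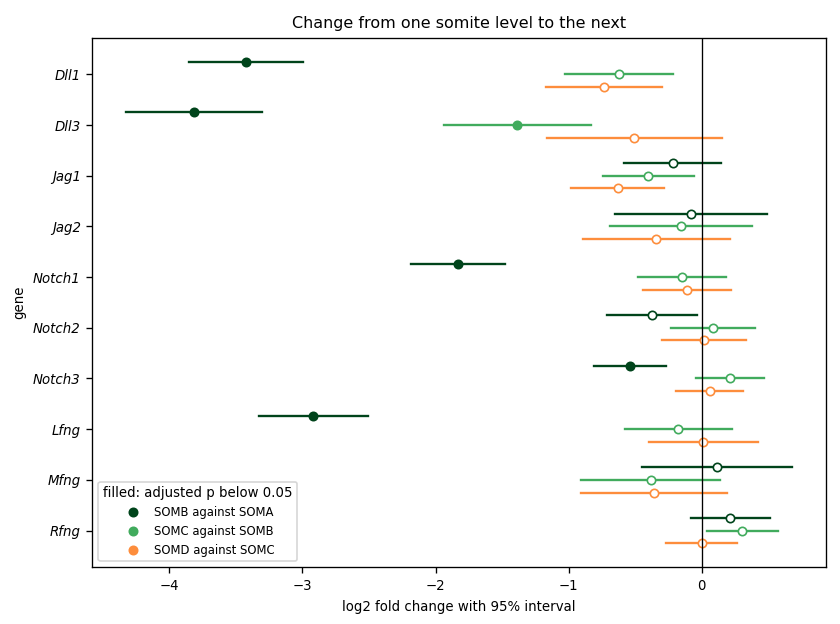
Points give the log2 fold change of each gene (horizontal axis) from one somite level to the next and lines the 95% interval; filled points passed edgeR's test at an adjusted p below 0.05. Dll1, Dll3, Notch1, Notch3 and Lfng lie left of 0 in SOMB against SOMA, and Dll3 is the one filled point in the later steps.

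Dll1 encodes a Delta ligand that activates Notch in presomitic mesoderm and is at chr17:15367354-15376872 on the minus strand (mm10). Its level was 272, 359 and 336 CPM in SOMA1, SOMA3 and SOMA4, 39.3, 21.3, 34.3 and 25.7 CPM in SOMB1 to SOMB4, 17.6, 22.4, 19.4 and 19.0 CPM in SOMC1 to SOMC4, and 9.54, 14.8, 14.1 and 8.85 CPM in SOMD1 to SOMD4. SOMA stood far above every other level, SOMB and SOMC overlapped, and all SOMD libraries lay below all SOMC libraries. The log2 fold change in SOMD against SOMB was −1.35 ± 0.20 (± gives the SE for log2 fold changes; edgeR adjusted p = 4.69e-04), so Dll1 continued to fall among formed somites after it fell by 3.42 in SOMB against SOMA. Single steps did not pass: SOMC against SOMB gave −0.62 ± 0.19 (95% interval −1.03 to −0.22, edgeR adjusted p = 0.189) and SOMD against SOMC −0.73 ± 0.20 (95% interval −1.17 to −0.30, edgeR adjusted p = 0.0795). The annotation places a non-coding gene, A930024N18Rik, across Dll1 on the opposite strand. No counted gene shares an annotated exon with Dll1, and exons of genes that were not counted were not checked.

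Dll3 encodes a Delta family member that does not activate Notch from outside and that reduces signalling within the cell that makes it; the gene is at chr7:28293553-28302238 on the minus strand. It had 102, 146 and 163 CPM in SOMA1, SOMA3 and SOMA4, 14.4, 5.85, 10.2 and 8.48 CPM in SOMB1 to SOMB4, 2.63, 4.73, 3.26 and 4.24 CPM in SOMC1 to SOMC4, and 2.39, 3.28, 2.47 and 2.38 CPM in SOMD1 to SOMD4. Each level stood below the one before it, except that SOMD and SOMC overlapped. Dll3 fell by 5.71 in SOMD against SOMA on the log2 scale (SE 0.28, edgeR adjusted p = 2.47e-09), more than any other gene of the 10. Its fall in SOMC against SOMB, −1.39 ± 0.26 with an edgeR adjusted p of 0.0219, was not firm. It missed the threshold in 8 of 17 other settings, with edgeR adjusted p-values up to 0.249. Among them were leaving out SOMB1 (0.0628), SOMB4 (0.0563), SOMC1 (0.0945), SOMC3 (0.0522) or SOMC4 (0.0602), and summing the near-identical libraries (0.0893). SOMB1 had the highest Dll3 and Dll1 of SOMB and also the highest presomitic marker sum, 15.0 CPM, against 3.63, 5.82 and 6.05 CPM in SOMB2, SOMB3 and SOMB4.

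The SOM libraries fell into 2 sets by the share of reads in no feature, 7.57 to 10.7% in 9 libraries and 12 to 12.8% in the other 6, which are SOMD1 and SOMD4, SOMC1 and SOMC4, SOMB1, and SOMA1. In SOMB against SOMA the log2 difference of Dll3 was −2.82 in the set with the higher share (1 library a group) and −4.27 in the other (3 against 2). For Dll1 the same values were −2.79 and −3.71, for Lfng −2.40 and −3.18, for Notch1 −1.70 and −1.90, and for Notch3 −0.47 and −0.56. All 5 genes that fell were thus lower in SOMB within both sets, by less in the set with the higher share for each of them. In SOMD against SOMB the set with the higher share holds SOMD1 and SOMD4 against SOMB1 alone. There Dll1 gave −2.09, Dll3 −2.59 and Jag1 −1.23, against −0.88, −1.48 and −0.99 in the other set (2 against 3). All 3 genes were lower in SOMD within both sets, by more in the set that rests on SOMB1. For Dll3 in SOMC against SOMB the values were −2.10 and −1.02.

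Jag1 encodes a ligand of the Serrate type and is at chr2:137081456-137116644 on the minus strand. It followed another course. Its level was 66.1, 69.4 and 62.0 CPM in SOMA1, SOMA3 and SOMA4, 65.1, 38.9, 68.1 and 56.0 CPM in SOMB1 to SOMB4, 47.2, 39.9, 35.6 and 48.5 CPM in SOMC1 to SOMC4, and 27.6, 32.5, 21.8 and 27.6 CPM in SOMD1 to SOMD4. SOMA and SOMB overlapped, as did SOMB and SOMC, and all SOMD libraries lay below all others of the series. The change at the first step was −0.22 ± 0.17 (95% interval −0.58 to 0.15, edgeR adjusted p = 0.597), while Jag1 fell by 1.03 in SOMD against SOMB (SE 0.17, edgeR adjusted p = 7.90e-04) and by 1.25 in SOMD against SOMA (SE 0.17, edgeR adjusted p = 7.69e-05). SOMD against SOMC gave −0.63 ± 0.16 with an edgeR adjusted p of 0.0590, which crossed the threshold in 6 of 17 other settings and ranged there between 0.00758 and 0.374.

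Jag2, the other Serrate-type ligand gene (chr12:112907819-112929776, minus strand), was low throughout the series, with group means of 5.43 ± 2.02, 5.12 ± 1.17, 4.60 ± 0.811 and 3.64 ± 1.25 CPM in SOMA, SOMB, SOMC and SOMD (SD, n = 3, 4, 4 and 4). Its libraries ranged between 2.56 and 7.75 CPM and neighbouring levels overlapped. The log2 fold change in SOMD against SOMA was −0.57 ± 0.28 (95% interval −1.16 to 0.01, edgeR adjusted p = 0.169), and it passed as lower without SOMD2 (0.0417) and with replicate number as a block (0.0493). A change of either sign at the first step was within its interval, −0.65 to 0.49.

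Per length, the make-up of the ligand genes differed along the series. Dll1 held 58.1 ± 1.98% of the summed CPM per kilobase of the 4 ligand genes in SOMA, 36.1 ± 1.79% in SOMB, 35.5 ± 3.52% in SOMC and 33.2 ± 6.28% in SOMD (SD over libraries). Jag1 held 7.69 ± 1.36% in SOMA, 43.8 ± 2.97% in SOMB, 49.5 ± 5.79% in SOMC and 49.6 ± 6.70% in SOMD. The summed level itself was 155 ± 23.8 CPM per kilobase in SOMA and 9.90 ± 1.59 in SOMD. Jag1 came to the larger share while its own level, in CPM per kilobase, was 11.7 ± 0.658 in SOMA and 4.88 ± 0.781 in SOMD. Shares were not tested.

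**Figure D3:**
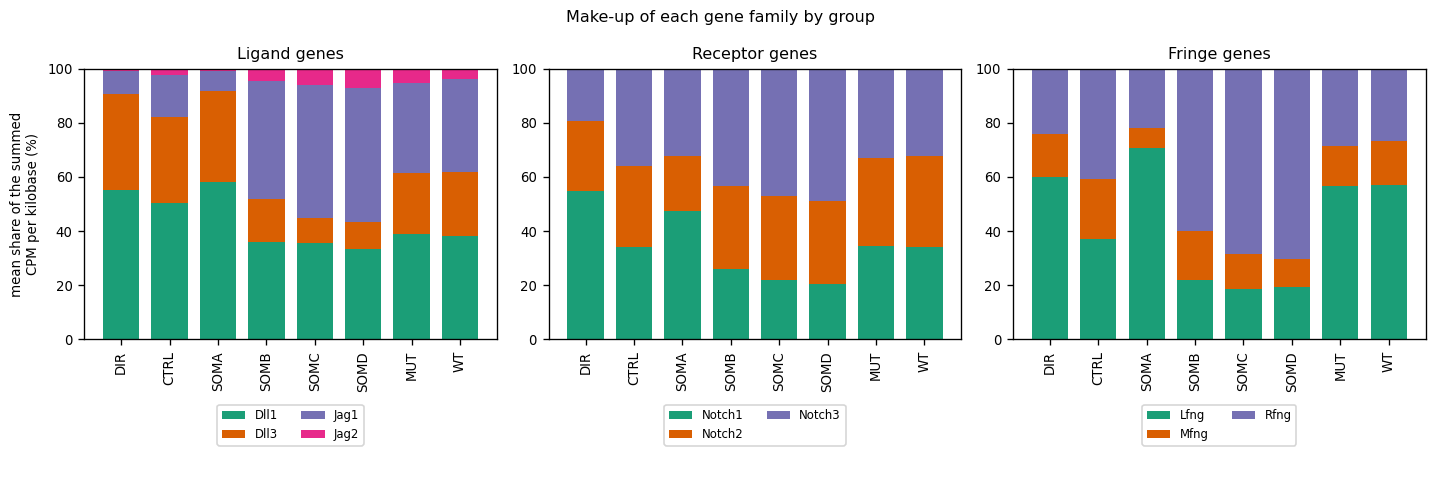
Bars give, for each of the 8 groups, the mean share of each gene (%) in the summed CPM per kilobase of exon of its family: 4 ligand, 3 receptor and 3 Fringe genes. Dll1 and Lfng make the larger part of their families in SOMA (58.1 and 70.8%), and Jag1 and Rfng in SOMD (49.6 and 70.2%).

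Notch1 encodes the receptor most studied in somite formation and is at chr2:26457903-26516663 on the minus strand. Its level was 321, 364 and 321 CPM in SOMA1, SOMA3 and SOMA4, 98.9, 75.4, 124 and 81.5 CPM in SOMB1 to SOMB4, 81.0, 106, 73.2 and 81.1 CPM in SOMC1 to SOMC4, and 73.4, 97.0, 71.9 and 70.7 CPM in SOMD1 to SOMD4. SOMA stood above all other libraries, and the 3 later levels overlapped each other. Notch1 fell by 1.83 in SOMB against SOMA (SE 0.17, edgeR adjusted p = 4.23e-06), and the later steps were −0.15 ± 0.16 (95% interval −0.48 to 0.19) and −0.11 ± 0.16 (95% interval −0.44 to 0.22). Unlike Dll1 and Dll3, it did not pass in SOMD against SOMB (−0.26 ± 0.16, edgeR adjusted p = 0.327); the difference between the genes was not tested. The genes 0610009E02Rik and Gm13568 overlap the span of Notch1 on the opposite strand. No counted gene shares an annotated exon with Notch1, and genes that were not counted were not checked.

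Notch3, a receptor gene at chr17:32120820-32166852 on the minus strand, had 198, 201 and 179 CPM in SOMA1, SOMA3 and SOMA4, 143, 109.6, 157 and 123 CPM in SOMB1 to SOMB4, 160.2, 170.0, 136 and 149 CPM in SOMC1 to SOMC4, and 174, 175, 130.0 and 154 CPM in SOMD1 to SOMD4. SOMA lay above the rest, by far less than for Notch1. It fell by 0.54 in SOMB against SOMA (SE 0.13, edgeR adjusted p = 0.0125), a call that was lost without SOMA3 (0.0529) and with all 29 libraries in 1 fit (0.156). In SOMD against SOMA the change was −0.27 ± 0.13 and did not pass (95% interval −0.54 to 0.01, edgeR adjusted p = 0.167). An antisense gene, Gm17276, overlaps the span of Notch3. No counted gene shares an annotated exon with Notch3, and genes that were not counted were not checked.

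Notch2 (chr3:98013527-98150361, plus strand), a receptor gene, ranged between 87.4 and 167 CPM over the 15 SOM libraries, and SOMB overlapped each other group, while all SOMC and SOMD libraries lay below all SOMA libraries. It did not pass edgeR's test in any somite comparison. The interval of its log2 fold change was −0.71 to −0.03 in SOMB against SOMA (edgeR adjusted p = 0.205, or 0.0346 without SOMB3) and −0.30 to 0.33 in SOMD against SOMC. With Notch1 lower and the other receptors closer to their SOMA level, the share of Notch1 in the receptor genes per kilobase was 47.3 ± 1.36% in SOMA and 20.4 ± 2.19% in SOMD, and that of Notch3 32.2 ± 1.06% in SOMA and 48.8 ± 1.76% in SOMD. In SOMB the share of Notch1 was already 25.9 ± 1.41%.

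Lfng, the Fringe gene that cycles in the segmentation clock (chr5:140607320-140615545, plus strand), had 44.7, 58.2 and 69.5 CPM in SOMA1, SOMA3 and SOMA4 and 8.43, 9.91, 6.10 and 5.68 CPM in SOMB1 to SOMB4. It then had 6.15, 5.50, 7.23 and 7.85 CPM in SOMC1 to SOMC4 and 5.57, 6.99, 8.25 and 6.19 CPM in SOMD1 to SOMD4. SOMA stood far above the rest, and SOMB, SOMC and SOMD overlapped. No further decrease was detected after the first step: SOMD against SOMB gave −0.16 ± 0.19 (95% interval −0.57 to 0.25, edgeR adjusted p = 0.624). In SOMD against SOMA it fell by 3.08 (SE 0.20, edgeR adjusted p = 3.35e-08).

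Rfng encodes a Fringe enzyme and is at chr11:120780746-120784207 on the minus strand. Its level was 20.0, 14.7 and 12.7 CPM in SOMA1, SOMA3 and SOMA4, 20.5, 16.8, 19.9 and 17.3 CPM in SOMB1 to SOMB4, 26.0, 22.8, 20.5 and 22.4 CPM in SOMC1 to SOMC4, and 22.5, 24.3, 20.7 and 23.0 CPM in SOMD1 to SOMD4. All SOMD libraries lay above all SOMA libraries, with SOMA1 the nearest to them. Rfng rose by 0.52 in SOMD against SOMA (SE 0.14, edgeR adjusted p = 0.0140), and the call was lost without SOMA3 (0.0584) or SOMA4 (0.0774). In the set with the higher share of reads in no feature (SOMD1 and SOMD4 against SOMA1) the log2 difference was 0.19. In the other set (2 against 2 libraries) it was 0.71. Rfng was the only gene of the 10 that rose in a somite comparison.

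Mfng, another Fringe gene (chr15:78755882-78773475, minus strand), was low, between 2.49 and 7.43 CPM over the SOM libraries, and did not pass edgeR's test in any somite comparison. Its change in SOMD against SOMB was −0.74 ± 0.26 (95% interval −1.28 to −0.20, edgeR adjusted p = 0.0812), which passed with DESeq2 (adjusted p = 0.0470, where DESeq2 called 12.8% of all genes) and with replicate number as a block (0.0489). The block also called it as lower in SOMD against SOMA (0.0336). Per kilobase, Lfng made 70.8 ± 8.10% of the Fringe genes in SOMA, 21.9 ± 3.99% in SOMB and 19.2 ± 3.27% in SOMD, and Rfng 21.9 ± 7.72% in SOMA, 59.9 ± 7.36% in SOMB and 70.2 ± 3.72% in SOMD. The summed Fringe level was 34.9 ± 3.69 CPM per kilobase in SOMA and 15.2 ± 0.963 in SOMD.

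Other genes of the pathway were counted from lists by role. Of 7 target genes, which RBPJ and Notch switch on, Hes7, Hey1, Hey2 and Nrarp fell in SOMB against SOMA and 3 did not pass. Over all genes tested 4.55% fell there. Hes7, a repressor at the core of the segmentation clock, had 1.32 ± 1.01 CPM in SOMB and 35.4 ± 7.73 CPM in SOMA (SD, n = 4 and 3), and fell by 4.70 on the log2 scale. Hes7 is also among the 6 presomitic markers. In SOMD against SOMA, where 8.92% of all genes tested fell, 5 of the 7 fell, including Hes1, a repressor of the same family (−0.67 ± 0.19, edgeR adjusted p = 0.0180). Hey1 and Hey2, repressors related to the Hes proteins, fell at each of the 3 steps. For Hey1 the log2 fold changes were −0.99 ± 0.06, −0.69 ± 0.06 and −0.34 ± 0.06. Hey1 thus fell in SOMD against SOMC, where none of the 10 genes passed (edgeR adjusted p = 0.00996, with 2.34% of all genes tested changed).

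Of 12 genes for the nuclear complex, 2 fell in SOMB against SOMA, where 8.67% of all genes tested changed and 4.55% fell. Both are Mastermind-like coactivators that bind the freed receptor. Maml2 had 13.6 ± 1.70 CPM in SOMB and 25.8 ± 2.19 CPM in SOMA (SD, n = 4 and 3; −0.94 ± 0.12, edgeR adjusted p = 1.05e-04), and Maml3 changed by −0.80 ± 0.15 (edgeR adjusted p = 0.00248). Of 9 genes of Notch glycosylation 1 fell, A130022J15Rik, the symbol in the files for Eogt, an enzyme that adds GlcNAc to the outer part of the receptor. It had 14.9 ± 2.21 CPM in SOMB and 66.6 ± 19.7 CPM in SOMA (−2.15 ± 0.19, edgeR adjusted p = 3.05e-06). None of 10 genes of the cutting proteases, 8 of ligand endocytosis and 13 regulators passed in that comparison. No list was tested as a set against the share over all genes.

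In SOMD against SOMA 19.8% of all genes tested changed. There 1 of 10 protease genes rose and 1 of 8 endocytosis genes fell, while of 9 glycosylation genes 1 rose and 1 fell. The protease gene Furin, whose product trims the receptor during its making, rose by 0.58 (SE 0.15, edgeR adjusted p = 0.00933). Pofut1, which adds the fucose that Fringe enzymes extend, rose by 0.27 (SE 0.09, edgeR adjusted p = 0.0447). Dnm2, an endocytosis gene, fell by 0.22 (SE 0.07, edgeR adjusted p = 0.0279). Of 13 regulators 0 passed in any somite comparison. A wider list held 8 further genes, not all of them Notch ligands or receptors: Dll4, Notch4, Dlk1, Dlk2, Dner, Egfl7, Megf10 and Cntn1. Of these, 6 were tested. In SOMB against SOMA 1 of these rose and 1 fell, where 8.67% of all genes tested changed. Notch4, a receptor gene best known from endothelium, fell in SOMB against SOMA, with 5.67 ± 1.69 CPM in SOMB and 21.4 ± 4.27 CPM in SOMA (−1.92 ± 0.24, edgeR adjusted p = 6.72e-05), while none of 8 endothelial markers passed there. Dlk1, a non-canonical ligand gene, rose by 0.78 (SE 0.19, edgeR adjusted p = 0.0140) in the same comparison. In SOMD against SOMA 3 of the 6 rose and 1 fell, with Megf10 higher by 2.03 (SE 0.34, edgeR adjusted p = 4.48e-04).

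For each of the 10 genes, the genes most like it over the 15 SOM libraries were named by Pearson correlation of log2 CPM over all genes that averaged 5 CPM or more. These libraries share 4 levels and the sets described above, so a high value can rest on the level of SOMA alone. Dll1 was closest to Dll3 (r = 0.99), Dgkk (0.99) and Pcdh19 (0.98), and Dll3 to Dll1, Dgkk and Pcdh19 (0.99 each). Notch1 was closest to Notch4 (0.97), Magi1 (0.97) and Dll1 (0.97). Lfng was closest to Pea15a (0.98), the Notch target Nrarp (0.98) and Nkd2 (0.97). Jag1 was closest to Dact1 (0.94), Magi3 (0.94) and Rgs9bp (0.94), and Rfng to Mllt1, Crtc1 and Znf512b (0.97 each). For Jag2, Notch2, Notch3 and Mfng the nearest genes were Pelp1 (0.95), Per3 (0.95), Slc12a7 (0.94) and N4bp3 (0.90).

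With the mean of its level taken from each library, some pairs of the 10 still varied together over the 15 libraries. The correlation of these deviations was 0.80 for Dll1 with Dll3, 0.70 for Dll1 with Notch1 and 0.90 for Notch2 with Notch3. Jag1 with Notch2 (0.90), Jag1 with Notch3 (0.82) and Notch1 with Notch3 (0.81) were as high as the Delta pair or higher. Dll1 with Lfng gave 0.17 and Lfng with Notch2 −0.67. The sets by share of reads in no feature run through all levels, and their part in these values was not tested.

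Cultured presomitic cells without the molecules, CTRL, differed from freshly sorted SOMA. Dll1, Notch1, Notch2, Notch3 and Lfng fell in CTRL against SOMA, 5 of 10, where 29.4% of the 15223 genes tested changed, 13.4% lower and 16% higher. CTRL and SOMA cells differ in culture and may differ in library preparation. SOMA also holds the newest somite, while CTRL is labelled presomitic mesoderm. These differences cannot be told apart. Lfng averaged 16.1 ± 4.98 CPM in CTRL and 57.5 ± 12.4 CPM in SOMA (SD, n = 4 and 3; −1.84 ± 0.29, edgeR adjusted p = 3.25e-05). Notch1 averaged 121 ± 32.2 CPM in CTRL and 335 ± 24.6 CPM in SOMA (−1.48 ± 0.20, edgeR adjusted p = 4.09e-06). No CTRL library reached the lowest SOMA library for either gene, nor for Dll1 (−1.11 ± 0.23, edgeR adjusted p = 5.63e-04).

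The smaller falls were less firm. Notch3 changed by −0.83 ± 0.20 (edgeR adjusted p = 0.00288), a call lost with replicate number as a block (0.0921). Notch2 changed by −0.52 ± 0.16 (edgeR adjusted p = 0.0172), and its call was lost in 5 of 13 other settings, with adjusted p-values between 0.0549 and 0.0927 in these, among them leaving out CTRL2 (0.0675), SOMA1 (0.0549) or SOMA3 (0.0622). Jag1 was 81.5, 56.5, 67.6 and 64.8 CPM in CTRL1 to CTRL4 and overlapped SOMA (95% interval −0.36 to 0.42, edgeR adjusted p = 0.926). Dll3 did not pass (−0.92 ± 0.38, edgeR adjusted p = 0.0702), although all CTRL libraries lay below all SOMA libraries, and passed with the block (0.0379). The block thus called 4 of the 10, with Notch2 and Notch3 lost and Dll3 gained, where it called 7% of all genes. Without CTRL1, Jag2 and Mfng also passed, as higher in CTRL (log2 fold changes 1.24 and 0.96, edgeR adjusted p = 0.0203 and 0.0443), which makes 7 calls. Over all genes this setting gave 4756 calls, against 4472 in the main fit. Of the 6 genes of the wider list that were tested, Dll4, an endothelial Delta ligand gene, rose in CTRL (2.38 ± 0.49, edgeR adjusted p = 6.34e-04). Notch4 (−0.89 ± 0.32, edgeR adjusted p = 0.0386) and Megf10 (−1.56 ± 0.48, edgeR adjusted p = 0.0164) fell. In the same comparison 2 of 6 presomitic, 2 of 6 somite and 2 of 10 neural tube markers fell. Ripply2 averaged 2.27 CPM in CTRL and 22.9 CPM in SOMA, and Mesp2 4.34 and 21.8 CPM. The other presomitic markers lay closer, Tbx6 at 45.5 and 67.8, Msgn1 at 29.5 and 30.4, T at 44.7 and 51.9 and Hes7 at 28.5 and 35.4 CPM. Of 8 endothelial markers 6 rose, and of 7 epithelial markers 1. The summed level of the endothelial list was 250 to 326 CPM in CTRL and 54.2 to 207 CPM in SOMA. The part of these cell types in the results was not tested.

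LDN and SAG left no gene of the 10 past the threshold in DIR against CTRL, where 0.747% of the 14190 genes tested changed. Jag1, Notch1, Notch3, Lfng and Rfng had an unadjusted edgeR p under 0.05, and Notch3 passed with DESeq2 (adjusted p = 0.0249), which called 3.5% of all genes. The count of calls differed between fits. Among the pathway lists 1 gene passed, Heyl, a Hes-related target gene, with 25.6 ± 9.74 CPM in DIR and 3.61 ± 0.657 CPM in CTRL (SD, n = 4 each; 2.82 ± 0.28, edgeR adjusted p = 0.00210).

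Among the ligands, Jag1 had 45.8, 54.8, 27.6 and 44.5 CPM in DIR1 to DIR4 and 81.5, 56.5, 67.6 and 64.8 CPM in CTRL1 to CTRL4. All DIR libraries lay below all CTRL libraries, and the log2 fold change was −0.65 ± 0.20 (95% interval −1.11 to −0.20, edgeR adjusted p = 0.209). Dll1 had 138, 183, 258 and 239.9 CPM in DIR1 to DIR4 and 106, 165, 160.4 and 167 CPM in CTRL1 to CTRL4. Dll3 had 50.1, 53.7, 173 and 146 CPM in DIR1 to DIR4 and 29.7, 84.1, 93.5 and 83.2 CPM in CTRL1 to CTRL4. For both Delta genes DIR3 and DIR4 were the highest of the 8 libraries and CTRL1 was the lowest. Their intervals held 0, −0.05 to 0.95 for Dll1 (edgeR adjusted p = 0.363) and −0.51 to 1.60 for Dll3 (edgeR adjusted p = 0.598). Jag2, at 4.67 ± 3.07 CPM in DIR and 10.3 ± 5.34 CPM in CTRL (SD, n = 4 each), did not pass either (edgeR adjusted p = 0.385).

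Among the receptors, Notch3 had 37.5, 47.6, 63.3 and 68.8 CPM in DIR1 to DIR4 and 62.8, 96.8, 129 and 149 CPM in CTRL1 to CTRL4. CTRL1 lay within the range of DIR and the other 3 CTRL libraries above it (−1.01 ± 0.28, 95% interval −1.64 to −0.38, edgeR adjusted p = 0.168). Notch1 had 134, 159, 199.8 and 235 CPM in DIR1 to DIR4 and 77.5, 117, 149 and 141 CPM in CTRL1 to CTRL4 (0.59 ± 0.23, edgeR adjusted p = 0.296). The 2 receptor genes thus differed in sign, and their shares per kilobase did not overlap between the groups: Notch1 made 54.7 ± 5.19% of the receptor genes in DIR and 34.2 ± 4.04% in CTRL, and Notch3 19.3 ± 2.36% in DIR and 36.0 ± 6.28% in CTRL (SD, n = 4 each). These shares were not tested, and neither gene passed edgeR's test. Notch2 averaged 92.8 ± 20.7 CPM in DIR and 112 ± 20.5 CPM in CTRL, with overlap (edgeR adjusted p = 0.472).

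Among the Fringe genes, Lfng had 18.8, 21.2, 58.9 and 37.1 CPM in DIR1 to DIR4 and 9.44, 21.4, 17.3 and 16.3 CPM in CTRL1 to CTRL4. DIR3 and DIR4 lay above every CTRL library, and DIR1 and DIR2 lay among them (1.07 ± 0.38, 95% interval 0.21 to 1.94, edgeR adjusted p = 0.256). Rfng averaged 11.1 ± 2.14 CPM in DIR and 16.0 ± 4.10 CPM in CTRL (SD, n = 4 each; −0.53 ± 0.22, edgeR adjusted p = 0.307). Per kilobase Lfng made 60.2 ± 5.85% of the Fringe genes in DIR and 37.1 ± 6.47% in CTRL, again without overlap. This share was not tested either, and Lfng did not pass edgeR's test. Mfng was 7.19 ± 3.82 CPM in DIR and 7.85 ± 2.83 CPM in CTRL (edgeR adjusted p = 0.900).

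The 8 cultured libraries fell into 2 sets by the share of alignments that are not unique, 22.3 to 25.4% in DIR1, DIR2 and CTRL1 and 15.9 to 19.5% in DIR3, DIR4, CTRL2, CTRL3 and CTRL4. Within both sets DIR was higher than CTRL for Dll1, Dll3, Notch1 and Lfng and lower for Jag1, Jag2, Notch2, Notch3 and Rfng. In the first set (2 against 1 library) the log2 difference was 1.08 for Lfng, 0.91 for Notch1, −0.70 for Jag1 and −0.57 for Notch3. In the second (2 against 3) it was 1.36 for Lfng, 0.68 for Notch1, −0.84 for Jag1 and −0.90 for Notch3. Mfng alone differed in sign (−0.14 and 0.23).

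Calls appeared in settings that took this split into account, and also in others that did not. With the share of alignments that are not unique as a term, Dll1, Dll3, Notch1 and Lfng passed as higher in DIR, where 1.52% of all genes tested changed. Their log2 fold changes were 0.77, 1.24, 0.95 and 1.54. Notch3 and Jag1 did not pass with this term. In the second set alone, a setting chosen after seeing the data, the same 4 genes passed as higher and Notch3 as lower, where 1.78% of all genes changed. With all 29 libraries in 1 fit, which has no term for the split, Notch1 and Lfng passed as higher. Jag1, Notch3 and Rfng passed there as lower, and 9.74% of all genes changed. Over the 16 other settings the edgeR or DESeq2 adjusted p ranged between 0.00461 and 0.586 for Lfng, 0.00241 and 0.540 for Notch1, 0.00235 and 0.447 for Notch3, and 0.0248 and 0.447 for Jag1.

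**Figure D4:**
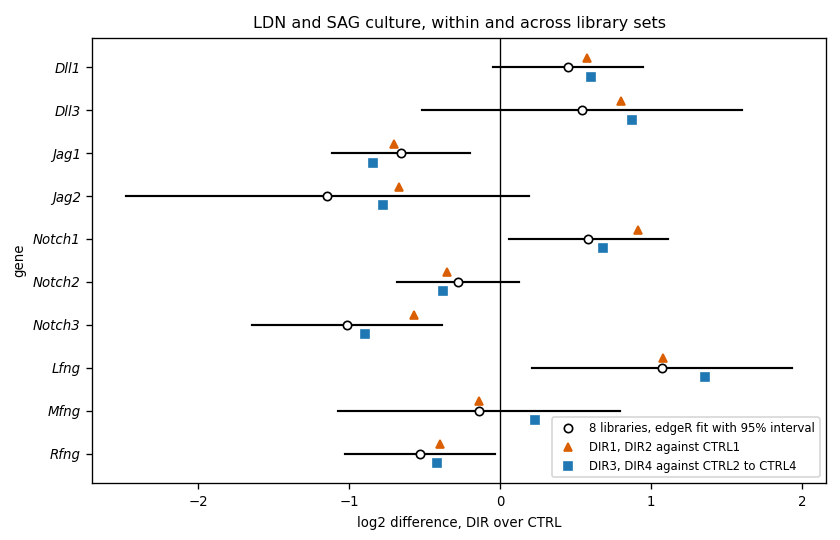
For each gene the horizontal axis gives the log2 difference of DIR over CTRL, as the edgeR value over 8 libraries with its 95% interval (open circles and lines) and as differences of means within the libraries with more (triangles) and fewer (squares) alignments that are not unique. Dll1, Dll3, Notch1 and Lfng lie right of 0 on all 3 measures, and Mfng is the one gene whose measures differ in sign.

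Markers moved with these values. The presomitic sum was 87.4, 110.0, 297 and 248 CPM in DIR1 to DIR4 and 75.9, 192, 174 and 178 CPM in CTRL1 to CTRL4. DIR3 and DIR4, highest in Dll1 and Dll3, thus also had the highest sums, and CTRL1, lowest in both, the lowest. DIR2 had more Dll1 than any CTRL library, 183 CPM, but a lower sum than CTRL2, CTRL3 and CTRL4. None of these 6 markers passed in DIR against CTRL. Of 7 lateral mesoderm markers 5 fell, and the sum of the 7 was 65.6 to 155 CPM in DIR and 170 to 329 CPM in CTRL. Of 6 somite markers 1 rose, and of 9 neural tube markers tested 1 rose. The part of these cell types in the Notch genes was not tested.

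In trunk tissue no gene of the 10 passed in MUT against WT, where 0.338% of the 14485 genes tested changed. DESeq2 also called 0 of the 10, where it called 7.78% of the genes it gave an adjusted p. Jag2 alone had an unadjusted edgeR p under 0.05. It had 15.4, 12.6 and 14.5 CPM in MUT1 to MUT3 and 10.5, 9.74 and 12.1 CPM in WT1 to WT3, so all MUT libraries lay above all WT libraries. The log2 fold change was 0.39 ± 0.14 (95% interval 0.07 to 0.70, edgeR adjusted p = 0.230), and it did not pass in any of 13 other settings (0.161 to 0.853).

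Notch2 averaged 181 ± 8.31 CPM in MUT and 184 ± 11.0 CPM in WT (SD, n = 3 each), and the 95% interval of its log2 fold change was −0.17 to 0.12. The interval was −0.18 to 0.24 for Notch1 and −0.09 to 0.21 for Notch3. Lfng averaged 35.8 ± 4.88 CPM in MUT and 36.6 ± 3.51 CPM in WT (95% interval −0.30 to 0.23), Rfng 16.4 ± 1.31 CPM in MUT and 15.6 ± 1.42 CPM in WT (95% interval −0.20 to 0.34), and Jag1 95.1 ± 14.2 CPM in MUT and 103 ± 13.7 CPM in WT (95% interval −0.40 to 0.16).

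The Delta genes varied more among the trunk libraries. Dll1 had 60.8, 91.6 and 66.1 CPM in MUT1 to MUT3 and 95.6, 74.0 and 58.5 CPM in WT1 to WT3, and Dll3 had 28.9, 36.5 and 26.0 CPM in MUT1 to MUT3 and 45.7, 38.9 and 19.1 CPM in WT1 to WT3. Presomitic marker sums were 20.2, 24.2 and 13.9 CPM in MUT1 to MUT3 and 37.1, 30.2 and 7.53 CPM in WT1 to WT3. The library with the highest Dll1 in each group also had the highest sum. The WT libraries had the same order in both measures, but MUT3 had more Dll1 than MUT1 and a lower sum. The intervals were −0.49 to 0.36 for Dll1, −0.79 to 0.42 for Dll3 and −0.73 to 0.38 for Mfng. No gene of the 7 other pathway lists passed in MUT against WT.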

How the data were processed

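RNA of 29 libraries was sequenced after the TruSeq RNA kit V2 with 11 rounds of PCR, per the labels. The deposited files hold whole-number counts of reads per gene made by the authors, with 23337 genes and 5 summary lines each. The submitters' processing notes name mm10, HTSeq 0.6, TopHat2 2.0.9, DESeq2 1.10 and Cufflinks; the sources used here do not give their roles, the annotation or the strand setting. The summary lines were left out of library sizes and tests: reads in no feature made 6.54 to 12.8%, ambiguous reads 0.584 to 1.85% and alignments that are not unique 15.9 to 40.6% of the lines' total. Gene counts ran from 11541131 in SOMD2 to 44363411 in MUT1.

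The members and gene lists were chosen with earlier results of these data known. Counts were filtered by filterByExpr (minimum 10, minimum total 15), scaled by TMM and tested with quasi-likelihood F tests of edgeR 4.0.16 under R 4.3.3 (prior count 0.125), with Benjamini-Hochberg adjustment over all genes tested and a threshold of 0.05. The SE is the log2 fold change over the root of F, and intervals use the test's degrees of freedom. SOM libraries were fitted together, DIR with CTRL and MUT with WT alone, and CTRL against SOMA in a fit of all 29 libraries. Printed CPM were scaled by TMM over all 29 libraries. CPM per kilobase uses merged exons of GENCODE M21. The scripts were tested on simulated data.

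Alternatives were RLE factors, library totals, no filter, DESeq2 1.42.0, replicate number as a block, other sets of libraries in the fit, summary-line shares or Xist as a term, summed near-identical libraries, and each library left out in turn. Same-number libraries deviated together from their group means in SOMB against SOMA (r 0.56 to 0.59, 3 pairs) and SOMD against SOMC (0.59 to 0.71, 4 pairs), and not throughout in the other comparisons; this comes from the data, not the labels. Named genes are the 10 members, up to 3 genes per pathway list and comparison with the lowest p past the threshold, and the 3 genes most correlated with each member. The text names part of these. The plots come from Python 3.11.15 with matplotlib 3.10.9.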

Additional observations from a re-analysis of the deposited data

Results flagged for a closer look

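In 4 of 50 checks of a gene within a group of 4 libraries, 1 library lay far from the other 3, judged by its gap to the nearest divided by the whole range; chance gives about 1 in 20. Dll1 in CTRL1 (ratio 0.89) was 106 CPM, against 160.4 to 167 CPM in the other CTRL libraries. Dll3 in CTRL1 (0.838) was 29.7 CPM, against 83.2 to 93.5 CPM. Dll3 in SOMD2 (0.905) was 3.28 CPM, against 2.38 to 2.47 CPM in the other SOMD libraries. Notch1 in SOMD2 (0.899) was 97.0 CPM, against 70.7 to 73.4 CPM.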

How the results depend on the processing

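Of 1250 values of the 10 genes under another setting, 1197 kept their side of the threshold, 18 lost it, 35 gained it and 0 called values changed sign. Of the 10 genes, DIR against CTRL gave 1 call with DESeq2, 1 with the replicate block, 5 with all 29 libraries in 1 fit, 4 with the share of alignments that are not unique as a term and 5 in DIR3, DIR4 and CTRL2 to CTRL4 alone. Over all genes these gave 496, 256, 1482, 216 and 254, against 106. SOMC against SOMB gave 0 of the 10 with all 29 libraries, with its 2 groups alone or with near-identical libraries summed. Over all genes these gave 39, 84 and 15, against 114. SOMD against SOMC gave 1 without a filter, 2 with DESeq2, 2 with its 2 groups alone and 1 with a term for reads in no feature. There the counts over all genes were 348, 497, 351 and 537, against 322.

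Over all genes, the fit of all 29 libraries gave 776 in SOMB against SOMA (1196 as reported), 39 in SOMC against SOMB (114), 142 in SOMD against SOMC (322), 888 in SOMD against SOMB (1438) and 21 in MUT against WT (49). DESeq2 gave 286, 497 and 755 in SOMC against SOMB, SOMD against SOMC and MUT against WT. The 2 groups alone gave 797 in SOMB against SOMA and 2938 in CTRL against SOMA (4472). Summing near-identical libraries gave 15, 51 and 759 in SOMC against SOMB, SOMD against SOMC and SOMD against SOMB. A term for reads in no feature gave 537 in SOMD against SOMC. MUT against WT gave 106 with library totals, 197 without a filter and 1 with Xist as a term.

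With replicate number as a block the counts over all genes were 256 in DIR against CTRL, 179 in SOMC against SOMB, 328 in MUT against WT and 990 in CTRL against SOMA, none of them paired by the data. In the comparisons that were, SOMB against SOMA (1145) and SOMD against SOMC (382), the block changed no call of the 10 genes. In SOMD against SOMA the block gave 8 of the 10 genes (2872 over all genes), adding Jag2 and Mfng, in SOMD against SOMB 4 (1656), adding Mfng, and in CTRL against SOMA 4, losing Notch2 and Notch3 and adding Dll3.

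Leaving out 1 library gave 40 to 97 calls in DIR against CTRL (0 to 0 of the 10), 796 to 1146 in SOMB against SOMA (4 to 6), 25 to 131 in SOMC against SOMB (0 to 1), 130 to 372 in SOMD against SOMC (0 to 2), 1928 to 2896 in SOMD against SOMA (5 to 7), 805 to 1620 in SOMD against SOMB (3 to 3), 0 to 88 in MUT against WT (0 to 0) and 3020 to 4756 in CTRL against SOMA (4 to 7). The count over all genes moved by more than 1.5 times without CTRL2, CTRL3, CTRL4, DIR1, DIR2 or DIR4 (53, 48, 40, 67, 62 and 50), without SOMA4 in SOMB against SOMA (796), without SOMB1, SOMB4, SOMC1 or SOMC4 in SOMC against SOMB (49, 25, 32 and 29), without SOMC1, SOMC4, SOMD1 or SOMD4 in SOMD against SOMC (159, 161, 134 and 130), without SOMB4, SOMD1 or SOMD4 in SOMD against SOMB (958, 834 and 805), and without any 1 of the 6 trunk libraries (0 to 88). Jag2, Mfng and Dll3 had 32 or more counts in every library, with the fewest in Dll3 of SOMD.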
